A study of Rattus norvegicus with 167 samples.

Results

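The nuclear genes for subunits of the mitochondrial respiratory chain and ATP synthase, with some of their assembly factors, were followed in rat spinal cord after injury. The set holds every gene whose single symbol in the array annotation starts with Nduf, Cox4 to Cox8, Uqcr, Sdha to Sdhd, or Atp5, which gave 90 of 14218 annotated genes. By role these were 6 core and 28 accessory subunits of complex I, 4 of complex II, 7 of complex III, 17 of complex IV, 15 of ATP synthase, and 13 assembly factors and related genes. Each gene was read from the probe set with the highest mean, and 80 of the 90 had 1 probe set. A filter on low values kept 87 of the 90 and 12041 genes in all. Cox4i2, Cox7b2 and the pseudogene Cox6c-ps1 lay below it. A further 7 probe sets whose annotation names a second gene were left out, and with them Cox7a2, Atp5mc1, Atp5mc2, Uqcrb, Ndufs5 and Ndufa10.

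The respiratory chain sits in the inner mitochondrial membrane. Complexes I and II take electrons from nutrients, complex III passes them to cytochrome c, and complex IV hands them to oxygen. The proton gradient that complexes I, III and IV build drives ATP synthase. Some complex IV genes have alternative forms that depend on tissue or oxygen: Cox6a2 and Cox8b are the forms of heart and skeletal muscle, Cox6b2 is best known from testis, and Ndufa4l2 is a paralogue of Ndufa4 induced at low oxygen. Neurons of the spinal cord rely on this pathway for most of their ATP.

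RNA came from 5 mm segments of spinal cord of adult female Wistar rats and was hybridised to Affymetrix arrays, 1 sample an array. The cord was cut through at thoracic level T7/8 and a 5 mm piece was taken out. Into the gap went a tube of chitosan carrying neurotrophin-3 (NT3), the empty tube (ET), or nothing (lesion control, LC). A further 3 cords were uninjured. Segments were taken at the lesion and directly rostral and caudal of it, 1, 3, 10, 20, 30, 60 and 90 days after surgery. The lesion site was sampled from day 3 on in LC and NT3, and on day 3 alone in ET. Of 56 groups, 55 had 3 arrays and 1, rostral ET on day 10, had 2. All groups but the uninjured cords share the cut and the loss of the segment, and what lies at the lesion site afterwards is whatever filled the gap. Whether replicates are separate animals is not in the labels. The p-values therefore rest on the spread between arrays of a group, which may be technical. The number of arrays limits the precision.

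Values are the deposited log2 values. A gene is called where the adjusted p of limma, over all 12041 genes, is under 0.05. Early means days 1 and 3, intermediate days 10 to 30, and late days 60 and 90. As a check of the tissue, the mean of 14 neuron markers on the LC lesion arrays was −4.96 to −2.58 relative to uninjured cord (log2), and on the flanking LC arrays −1.71 to −0.45. In bulk tissue fewer cells of a type and less RNA per cell cannot be told apart. Agreement of an array with the others of its group over all genes had a median correlation of 0.9884 and was lowest, 0.9501, for replicate 1 of NT3 on day 3 at the lesion site. That array, replicate 5 of LC on day 20 at the lesion site (0.9780) and uninjured replicate 2 (0.9842) were left out together as an alternative, a choice taken over from earlier work on these data. Other arrays agreed less with their groups than the last 2 of these did. The mean of the members on the 3 uninjured arrays was −0.29, 0.14 and 0.15 around their average, so uninjured replicate 1 was the low one.

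The start regions of 5 members are printed because these are the genes that the results turn on: Cox4i1, the widespread form of its subunit, against the 4 complex IV genes that moved apart from the rest. They are the 250 bases before the annotated start in RefSeq (build GRCr8), at chr19:65630133-65630382 (plus strand) for Cox4i1, chr7:65241919-65242168 (plus strand) for Ndufa4l2, chr1:78122621-78122870 (plus strand) for Cox6b2, chr1:192219717-192219966 (minus strand) for Cox6a2 and chr1:205408274-205408523 (minus strand) for Cox8b. Capitals mark matches to 4 motifs searched on both strands: GCGCNNGCGC (core of the NRF-1 site), CCGGAAG (core of ETS factor sites), CTANNNNTAG (core of the MEF2 site) and ACGTG (core of the hypoxia response element).
Cox4i1: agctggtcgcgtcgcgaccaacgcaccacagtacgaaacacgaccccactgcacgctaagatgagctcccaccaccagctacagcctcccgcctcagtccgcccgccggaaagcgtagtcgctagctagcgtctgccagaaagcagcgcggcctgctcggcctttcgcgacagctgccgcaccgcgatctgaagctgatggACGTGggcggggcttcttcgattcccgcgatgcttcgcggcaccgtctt
Ndufa4l2: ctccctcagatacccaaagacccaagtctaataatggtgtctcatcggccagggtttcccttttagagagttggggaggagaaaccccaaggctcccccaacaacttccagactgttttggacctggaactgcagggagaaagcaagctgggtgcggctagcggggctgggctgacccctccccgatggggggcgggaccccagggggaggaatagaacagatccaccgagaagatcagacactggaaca
Cox6b2: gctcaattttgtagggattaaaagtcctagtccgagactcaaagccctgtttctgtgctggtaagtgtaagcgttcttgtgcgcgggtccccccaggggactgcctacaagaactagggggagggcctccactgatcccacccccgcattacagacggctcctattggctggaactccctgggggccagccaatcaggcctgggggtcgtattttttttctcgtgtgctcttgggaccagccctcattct
Cox6a2: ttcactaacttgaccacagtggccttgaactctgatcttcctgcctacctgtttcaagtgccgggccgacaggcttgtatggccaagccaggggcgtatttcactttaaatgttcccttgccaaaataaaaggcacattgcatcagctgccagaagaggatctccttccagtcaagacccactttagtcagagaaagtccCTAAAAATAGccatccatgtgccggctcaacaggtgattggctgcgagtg
Cox8b: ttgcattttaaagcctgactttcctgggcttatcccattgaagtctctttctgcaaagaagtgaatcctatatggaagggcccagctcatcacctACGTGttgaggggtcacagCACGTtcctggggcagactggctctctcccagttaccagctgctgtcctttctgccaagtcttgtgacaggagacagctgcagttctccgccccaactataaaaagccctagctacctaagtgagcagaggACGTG

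Cox6a2 held 1 match to the MEF2 core, the capitals in its line. Cox8b held 3 matches to the hypoxia response core and Cox4i1 held 1. In Ndufa4l2 and Cox6b2 these letters were not found in this window. Of the 90 members 82 had an entry, and all 82 are counted here beside 27456 promoters of all genes. The NRF-1 core was in 14 of 82, or 17.1%, against 5.3% of all. The ETS core was in 24 of 82, or 29.3%, against 7.74%. The MEF2 core was in 2, or 2.44%, against 3.43%. The hypoxia response core was in 19, or 23.2%, against 16.9%. NRF-1 and the ETS factor GABP are known regulators of respiratory chain genes. A match is a description of letters, not of binding.

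In cords left without a tube, nearly the whole respiratory chain was lower at the lesion site than in the rostral and caudal segments on the same days. Of 87 members, 81 were lower and 2 higher by limma, with a median log2 difference of −0.40, while 38% of all genes were lower, 48.7% were higher, and the median over all genes was 0.07. All 6 core subunits of complex I, all 28 accessory subunits, all 4 of complex II and all 7 of complex III were lower. In complex IV 12 of 15 were lower and 2 higher, in ATP synthase 14 of 15 were lower, and among the assembly factors and related genes 10 of 12. The medians by role ran from −0.59 for the core of complex I to −0.29 for the assembly factors and related genes.

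**Figure D1:**
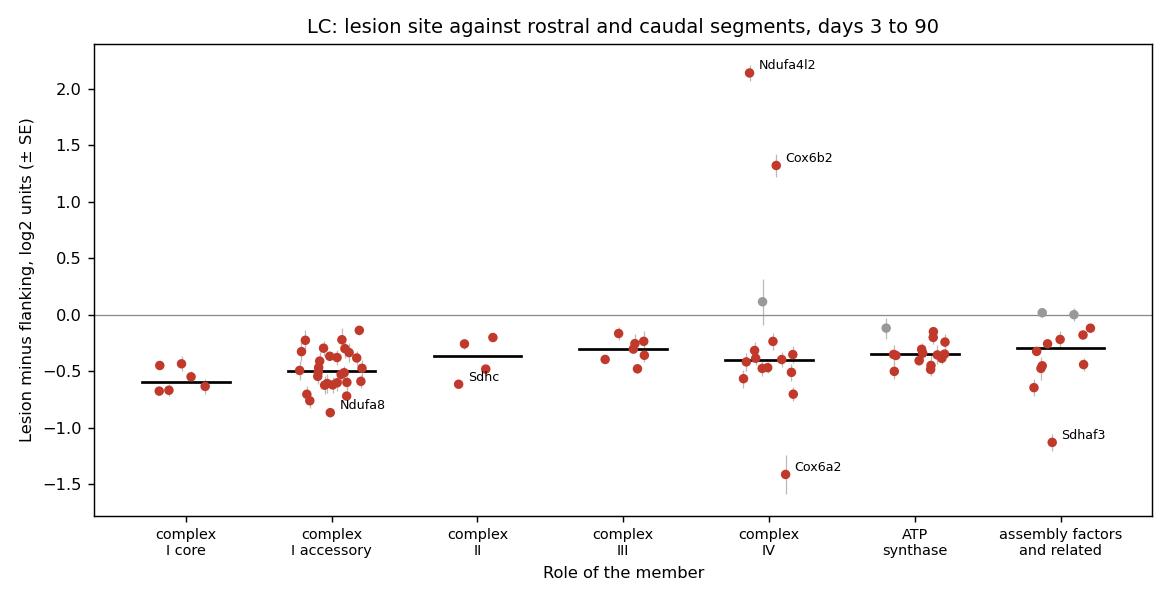
Log2 difference between the lesion site and the flanking segments in LC on days 3 to 90 for 87 members (points, with standard errors), by role, with the median of each role as a black bar; red points are called by limma and grey points are not. Points lie below 0 in each role except for Ndufa4l2 and Cox6b2, at 2.14 and 1.32, and for 3 uncalled points at or above 0.

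Among the core subunits of complex I, which carry its flavin and iron-sulfur centres, Ndufs1 stood at 9.68 to 10.33 (median 9.97) over 18 lesion arrays in LC. It stood at 10.40 to 10.97 (median 10.67) rostrally and 10.28 to 10.97 (median 10.64) caudally, over 21 arrays each. The ranges of lesion and caudal arrays overlap slightly. The log2 difference was −0.68 (SE 0.04, adjusted p by limma 2.3e-35).

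Ndufa8, an accessory subunit on the side of the intermembrane space, stood at 11.21 to 12.17 (median 11.67) at the lesion site. Rostral arrays lay at 12.34 to 12.80 (median 12.64) and caudal arrays at 12.19 to 12.97 (median 12.60), so no LC lesion array reached a flanking one. Ndufa8 was 1.82-fold lower (log2 −0.87, SE 0.04, adjusted p by limma 1.4e-39). Sdhc, a membrane anchor of complex II, was 1.53-fold lower (log2 −0.61, SE 0.03, adjusted p by limma 1.1e-44). Its lesion arrays, 11.32 to 11.72 (median 11.54), also lay below all flanking arrays. Ndufa8, Sdhc and Atp5f1c, the gamma subunit in the stalk of ATP synthase, were the 3 members with all 18 lesion arrays below all 36 flanking arrays of the same days, beside 9.2% of all genes. Ndufa4l2 was the 1 member with all lesion arrays above, beside 4.81% of all genes.

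Sdhaf3, an assembly factor that helps mature the iron-sulfur subunit of complex II, lay at 6.26 to 8.15 (median 7.48) at the lesion site. Rostral arrays lay at 7.93 to 9.12 (median 8.61), caudal arrays at 7.78 to 9.35 (median 8.58) and uninjured arrays at 9.11, 9.28 and 9.49. It was 2.19-fold lower than in the flanking segments (log2 −1.13, SE 0.08, adjusted p by limma 9.9e-28). In complex III the largest difference was in Uqcrc2, a core subunit (log2 −0.48, SE 0.04, adjusted p by limma 1.2e-21). In ATP synthase it was in Atp5mk, a small membrane subunit (log2 −0.50, SE 0.07, adjusted p by limma 2e-10). Cox4i1 at the lesion site lay at 11.99 to 12.70 (median 12.51). It lay at 12.59 to 13.14 (median 12.93) rostrally and 12.49 to 13.10 (median 12.95) caudally. It was 1.38-fold lower (log2 −0.47, SE 0.05, adjusted p by limma 1.6e-15). Atp5f1e, Sdhaf1, Ndufaf4 and Cox8b were the 4 members not called.

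Other genes of energy metabolism and of cell types moved at the same place. Of the tricarboxylic acid cycle, which feeds complexes I and II, 13 of 16 genes were lower and 1 higher; Idh3a, a subunit of isocitrate dehydrogenase, had a log2 difference of −1.21. Of other respiratory chain and carrier genes 12 of 13 were lower, led by the adenine nucleotide carrier Slc25a4 at −0.53. Of glycolysis genes 13 of 20 were lower and 6 higher, with Aldoc at −2.66. Of the regulators of mitochondrial biogenesis 8 of 16 were higher and 4 lower, and Esrrg, a nuclear receptor, was at −3.74. All 14 neuron markers were lower (median −3.10), as were all 11 oligodendrocyte markers (median −2.40) and 9 of 10 astrocyte markers (median −1.77). All 10 fibroblast and matrix genes were higher (median 1.91). The part of this change in cell markers in the fall of the members was not tested.

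Against the 3 uninjured cords, the lesion site in LC had 62 members lower and 5 higher on day 3, 70 and 3 on days 10 to 30, and 65 and 2 on days 60 and 90. The share of all genes that were lower was 33.5%, 37.1% and 35%, and the share higher 40.8%, 41.9% and 40.4%. The medians of the members were −0.57, −0.62 and −0.63, beside 0.08, 0.07 and 0.06 over all genes. From day 3 to the late days 15 members fell and 0 rose, beside 30% and 23.6% of all genes. The median change was −0.10.

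The members that rose on day 3 were 2 complex IV genes and 3 assembly factors. Ndufa4l2 rose by 2.41 on the log2 scale and Cox6b2 by 2.07, as set out below for single arrays. Ndufaf1, an assembly factor of complex I, stood at 7.80, 7.86 and 7.98 on day 3 in LC, above the uninjured arrays at 7.58, 6.84 and 7.40. It rose by 0.61 (SE 0.13, adjusted p by limma 8.9e-05) and then fell from day 3 to the late days by 1.01 (SE 0.11, adjusted p by limma 4.1e-09), reaching 6.66, 6.82 and 6.65 on day 60. Ndufaf4, another complex I assembly factor, stood at 9.60, 9.47 and 9.43 against 9.15, 8.75 and 9.27 in uninjured cord, a rise of 0.44 (SE 0.11, adjusted p by limma 9e-04). Sdhaf2, which attaches the flavin to complex II, rose by 0.15 (SE 0.07, adjusted p by limma 0.047).

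Ndufaf4 and Ndufaf1 also rose early in the flanking segments, while Sdhaf2 was not called there (log2 0.02 rostrally and 0.06 caudally). Ndufaf4 rose by 0.59 (SE 0.10, adjusted p by limma 5.5e-07) rostrally and by 0.50 (SE 0.09, adjusted p by limma 7.1e-06) caudally. Ndufaf1 rose by 0.47 (SE 0.11, adjusted p by limma 2.3e-04) rostrally and by 0.49 (SE 0.12, adjusted p by limma 4.6e-04) caudally. These comparisons share the 3 uninjured arrays.

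Ndufa4l2 was the member that stood furthest from the rest. Its uninjured values were 6.90, 7.15 and 7.16. At the lesion site in LC it stood at 9.17, 9.50 and 9.76 on day 3, at 9.20, 9.09 and 8.64 on day 10, and at 9.71, 9.93 and 10.28 on day 20. It was still at 9.64, 9.56 and 9.82 on day 30, at 9.25, 9.02 and 9.48 on day 60, and at 8.38, 9.39 and 8.38 on day 90. Each of the 18 LC lesion arrays lay above each uninjured array. In the flanking LC segments it lay at 6.89 to 7.86 (median 7.15) rostrally and 6.65 to 7.77 (median 7.11) caudally. Lesion against flanking it was 4.40-fold higher (log2 2.14, SE 0.07, adjusted p by limma 1.2e-57).

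With the NT3 tube, Ndufa4l2 rose on day 3 and was lower than in LC from day 10 on. The 3 NT3 arrays on day 3 stood at 9.39, 10.37 and 10.89, and the 3 ET arrays of that day at 9.26, 9.55 and 9.35. NT3 then stood at 7.44, 8.00 and 7.81 on day 10, at 8.03, 8.11 and 7.87 on day 20, and at 8.31, 7.72 and 7.81 on day 30. On day 60 it stood at 7.28, 7.01 and 7.34, and on day 90 at 7.66, 7.54 and 7.59. From day 10 on, no NT3 array reached an LC array, which held for 1 member, beside 0.249% of all genes.

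The NT3 minus LC difference of Ndufa4l2 averaged over 6 days was −1.23 (SE 0.11, adjusted p by limma 6.6e-11), or 2.34-fold lower. Over days 10 to 90, a comparison added after seeing the data, it was −1.62 (SE 0.12, adjusted p by limma 6.4e-13). By day it was 0.74 (SE 0.26) on day 3 and called higher, then −1.23, −1.97, −1.73, −2.04 and −1.12 on days 10, 20, 30, 60 and 90, each called lower. The test that the difference changed with the day gave an adjusted p by limma of 3.2e-06. On day 3 NT3 was also above ET by 0.83 (SE 0.26, adjusted p by limma 0.045). The lesion site has no ET arrays after day 3, so the tube and the neurotrophin cannot be told apart there.

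Ndufa4, the paralogue that is a regular subunit of complex IV, moved the other way. It was lower at the lesion site than in flanking LC segments (log2 −0.70, SE 0.06, adjusted p by limma 3e-19). It was higher in NT3 than in LC at the lesion site (log2 0.32, SE 0.08, adjusted p by limma 0.0017).

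Cox6b2 was the other gene higher at the lesion site. Uninjured arrays stood at 5.80, 6.20 and 5.91, and the 18 LC lesion arrays at 7.51 to 8.76 (median 8.03). Rostral LC arrays lay at 6.22 to 7.73 (median 6.80) and caudal ones at 5.67 to 7.73 (median 6.51), so the upper end of these ranges overlaps the lower end at the lesion site. It was 2.50-fold higher than in the flanking segments (log2 1.32, SE 0.10, adjusted p by limma 3.8e-23). In NT3 the lesion arrays lay at 6.48 to 8.64 (median 7.78), with 6.98, 6.48 and 6.88 on day 60. The NT3 minus LC difference of −0.32 (SE 0.13, adjusted p by limma 0.043) was no longer called with the 3 arrays named in the account of the data left out.

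**Figure D2:**
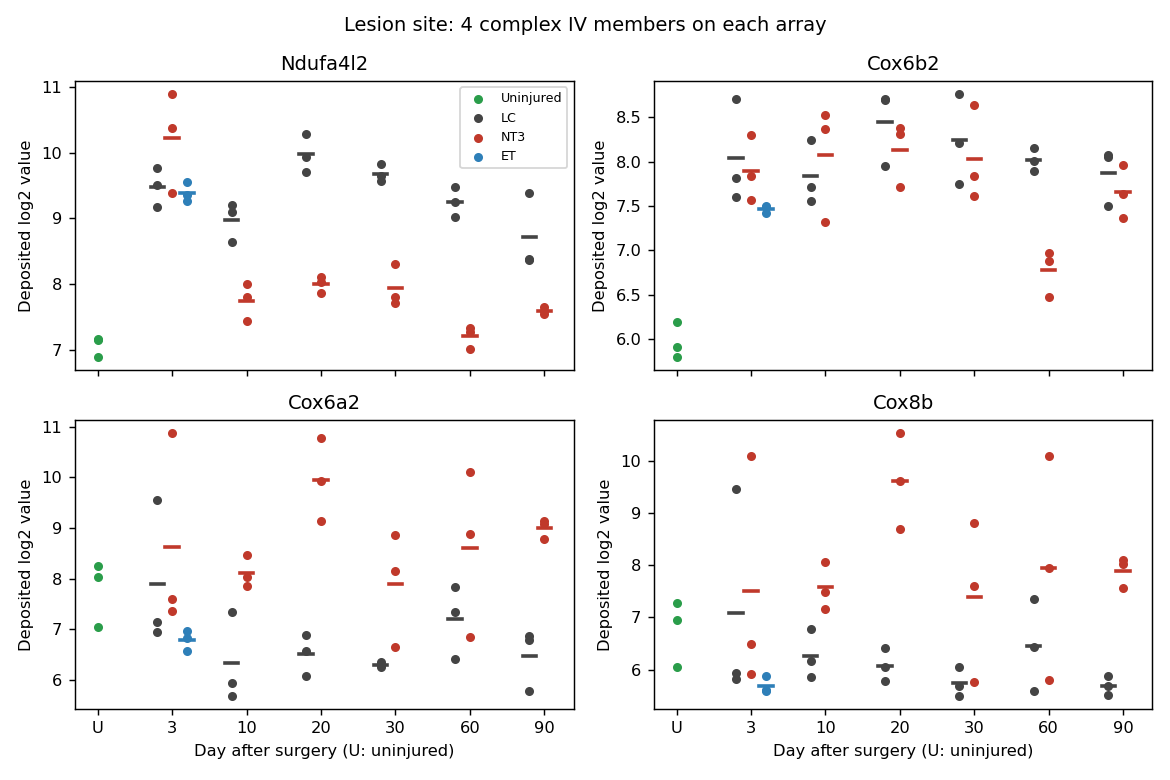
Deposited log2 values of Ndufa4l2, Cox6b2, Cox6a2 and Cox8b on each array of the lesion site by day, with uninjured cord at U; points are arrays, bars are group means, and colours are LC, NT3, ET and uninjured. NT3 arrays of Ndufa4l2 lie at 7.01 to 8.31 from day 10 on, below all LC arrays, while Cox6a2 and Cox8b reach 10.78 and 10.52 in NT3 on day 20.

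Over all members, the NT3 and LC lesion sites differed little. NT3 was higher for 7 of 87 members and lower for 4 by limma, beside 19% and 22.9% of all genes, with a median of 0.07 against −0.01 over all genes. The lower ones were Ndufa4l2, Cox6b2, Ndufaf7 (log2 −0.19) and Sdhaf2 (log2 −0.08). The higher ones were Cox6a2, Cox8b, Ndufa4, Sdhaf3 (log2 0.26), and the complex I accessory subunits Ndufa5 (log2 0.26), Ndufb10 (log2 0.24) and Ndufb4 (log2 0.20). No core subunit of complex I, no subunit of complexes II and III and no ATP synthase subunit was called. The count of higher members ranged from 4 to 13 with single arrays left out. Without LC replicate 2 of day 3, or LC replicate 1 of day 30, 4 were higher and 5 lower. It was 11 to 13 without NT3 replicate 1 of day 10, replicate 2 of day 30 or 60, or LC replicate 1 of day 10, 3 of day 30 or 2 of day 90. It was 4 without NT3 replicate 2 or 3 of day 10, replicate 1 of day 30, or LC replicate 3 of day 10 or 1 of day 90.

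Cox6a2 and Cox8b, the muscle forms, had the largest rises with NT3. Cox8b stood at 8.69, 10.52 and 9.61 on day 20 in NT3, against 5.79, 6.40 and 6.04 in LC. On day 30 the NT3 arrays stood at 8.81, 5.75 and 7.60, and on day 60 at 7.95, 5.80 and 10.08, so they spread widely and some overlap LC. On day 3, 1 array of each arm was high: LC at 5.83, 5.94 and 9.46, NT3 at 5.91, 10.09 and 6.50. Averaged over days the NT3 minus LC difference of Cox8b was 1.76 (SE 0.37, adjusted p by limma 2.4e-04).

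Cox6a2 stood at 9.13, 10.78 and 9.93 on day 20 in NT3 against 6.09, 6.89 and 6.57 in LC, and at 9.14, 9.07 and 8.79 on day 90 against 5.78, 6.79 and 6.87. The NT3 arrays lay above LC on both days. The average difference was 1.91 (SE 0.30, adjusted p by limma 6.8e-06). In LC the same gene was 2.66-fold lower at the lesion site than in the flanking segments (log2 −1.41, SE 0.17, adjusted p by limma 1.2e-12), the lowest of all 87 members.

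Skeletal muscle genes moved with both. All 19 of 19 on the list were higher in NT3 than in LC at the lesion site (median 1.73), led by the myosin light chain Myl1 at 3.79. The mean of the list relative to uninjured cord was 0.93 to 4.07 over the NT3 arrays of days 10 to 90, against −0.72 to 1.19 in LC. The day 3 arrays with high Cox8b had means of 3.02 (LC) and 3.81 (NT3), the highest of their groups. With the mean of the list as a covariate, an alternative chosen after seeing the data, the NT3 minus LC difference was −0.08 for Cox6a2 and −0.59 for Cox8b, neither called, and −1.52 (adjusted p by limma 1.9e-08) for Ndufa4l2. In that fit 0 members were higher and 4 lower, and the share of all genes is not given here. The mean of the list nearly separates the arms from day 10 on, so the fit cannot tell muscle genes from the arm. Neuron markers also moved: 12 of 14 were higher in NT3 (median 1.01), and 10 of 11 oligodendrocyte markers (median 0.53). Their part in the differences was not tested.

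Single days gave other counts at the lesion site. NT3 was higher for 6 members and lower for 1 on day 3 (background 7.97% and 9.82%), with a median of 0.33. It was higher for 0 and lower for 14 on day 60 (background 10.4% and 15.3%), with a median of −0.35. On day 90 it was higher for 11 and lower for 1 (background 12.3% and 16.5%), with a median of 0.37. On day 10 it was higher for 0 and lower for 1 (background 2.43% and 2.8%), on day 20 for 3 and 3 (14.2% and 19.4%), and on day 30 for 0 and 2 (9.86% and 8.24%). Over all days, 21 of 87 members changed in their NT3 minus LC difference by limma, against 50.6% of all genes. The count ranged from 11 to 61 with single arrays left out, so it rests on single arrays. It was 61 without replicate 1 of NT3 on day 30, 43 without replicate 1 of NT3 and 38 without replicate 1 of LC on day 10. It was 11 to 13 without any 1 NT3 array of day 60, LC replicate 2 or 3 of day 60, or LC replicate 2 of day 3.

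Uqcrfs1, the Rieske iron-sulfur subunit of complex III, was the second most clearly called in that test (adjusted p by limma 2.1e-04). On day 3 it stood at 11.73, 11.80 and 11.77 in NT3, above LC at 11.49, 11.33 and 11.40 and ET at 11.41, 11.40 and 11.08. On day 20 it stood at 11.17, 11.18 and 11.29 in NT3, below LC at 11.55, 11.59 and 11.60. Groups did not overlap on either day, and the sign differed. The difference was 0.36 (SE 0.08, adjusted p by limma 0.0023) on day 3 and −0.36 (SE 0.08, adjusted p by limma 8.8e-04) on day 20. Cox4i1 showed a smaller change with the day (adjusted p by limma 0.033).

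**Figure D3:**
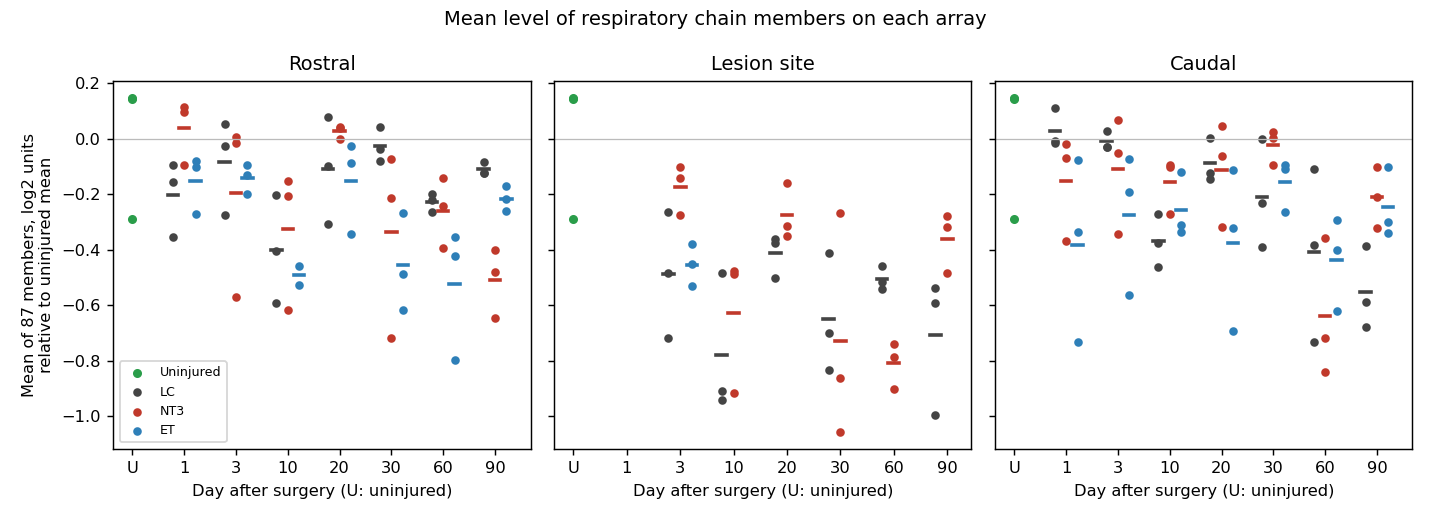
Mean of 87 members on each array relative to the average of the uninjured cords, in log2 units, by segment and day; points are arrays, short bars group means, and U marks the 3 uninjured arrays, 2 of which nearly coincide. Lesion arrays run from −1.06 to −0.10, while the flanking segments reach into the range of the uninjured arrays on several days.

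In the caudal segment of LC, the members were lower late than early. By limma 72 of 87 fell and 2 rose from days 1 and 3 to days 60 and 90, with a median of −0.53, while 35.5% of all genes fell, 22.7% rose and the median of all genes was −0.06. Of complex I, 4 of 6 core and 27 of 28 accessory subunits fell, of complex III 5 of 7, of complex IV 14 of 15, of ATP synthase 12 of 15, and of the assembly factors and related genes 9 of 12. Of complex II, 1 of 4 fell and 1 rose.

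Ndufa5, an accessory subunit of complex I, stood at 10.67, 10.45 and 10.45 on day 1 and at 10.19, 10.23 and 10.11 on day 3. It stood at 9.43, 9.93 and 8.86 on day 60 and at 8.97, 9.31 and 9.36 on day 90, with no overlap. The fall was 1.04 (SE 0.17, adjusted p by limma 1.5e-06). The largest fall was that of Cox6a2, with a log2 difference of −1.34 (SE 0.23, adjusted p by limma 1.9e-06). Its mean was 9.16 early and 7.82 late, beside 7.78 in uninjured cord, so this fall ended near the uninjured level. Atp5if1, the inhibitor protein of ATP synthase, fell by 1.01 (SE 0.16, adjusted p by limma 5.2e-07). In all, 27 members had all 6 late arrays below all 6 early ones, beside 16.7% of all genes.

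The members that rose were Sdha, the flavoprotein of complex II, and Uqcrc2. Sdha stood at 10.87, 11.05 and 10.85 on day 1 and 10.84, 10.83 and 10.81 on day 3, then at 11.02, 10.92 and 11.36 on day 60 and 11.32, 11.41 and 11.26 on day 90. Late and early arrays overlap only through day 60. The rise was 0.34 (SE 0.08, adjusted p by limma 5.3e-04). Uqcrc2 rose by 0.18 (SE 0.08, adjusted p by limma 0.041). The ATP synthase subunits alpha and beta did not pass the test, with log2 differences of 0.13 for Atp5f1a (alpha) and 0.03 for Atp5f1b (beta).

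Genes of cytosolic ribosomal proteins moved with this fall. Their mean over 51 genes, relative to uninjured cord, was 0.31 to 0.46 on the 6 early caudal LC arrays and −0.11 to 0.31 on the 6 late ones. With that mean as a covariate, an alternative chosen after seeing the data, the fit called 5 members lower and 10 higher, with a median of 0.01. The lowest early value of the mean was 0.311 and the highest late value 0.308, so it separates the periods. This fit therefore cannot tell the ribosomal mean from the period. For the lesion site the same covariate left 83 members lower and 2 higher against the flanking segments, with a median of −0.46. The shares of all genes called with this covariate are not given here. At the lesion site the ribosomal mean in LC was 0.07 to 0.46 and in the flanking segments −0.11 to 0.47.

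The rostral segment of LC did not show the late fall: 4 members fell and 5 rose, with a median of −0.02, beside 32.6% and 25.6% of all genes. The late minus early difference was larger rostrally than caudally for 16 members and smaller for 0 by limma, beside 2.31% and 1.54% of all genes, in a comparison added after seeing the data. Ndufa11, an accessory subunit of complex I, had the largest called difference, 0.84 (SE 0.26, adjusted p by limma 0.045), followed by Uqcr11 of complex III at 0.81 (SE 0.24, adjusted p by limma 0.042). The ribosomal mean late was 0.15 to 0.27 rostrally.

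The same comparison within the tube arms was also added after seeing the data, and the arms were not tested against each other in it. In NT3, 53 members fell and 1 rose rostrally (background 29.1% and 19.3%) and 50 fell and 4 rose caudally (background 28.6% and 20.8%). In ET, 32 fell and 2 rose rostrally (background 30.2% and 24.4%), while caudally 6 fell and 8 rose (background 25.9% and 18.9%). With the beta-actin difference as a covariate 50 fell in rostral ET, with a median of −0.31, beside 32.4% of all genes. The medians were −0.32 and −0.34 in NT3, and −0.23 and 0.00 in ET. Over the 3 arms together, the late minus early difference was larger rostrally for 0 members and smaller for 1, beside 3.99% and 0.764% of all genes. Sdha rose in caudal LC, in both segments of NT3 (log2 0.26 and 0.42) and in both of ET (log2 0.24 and 0.29).

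**Figure D4:**
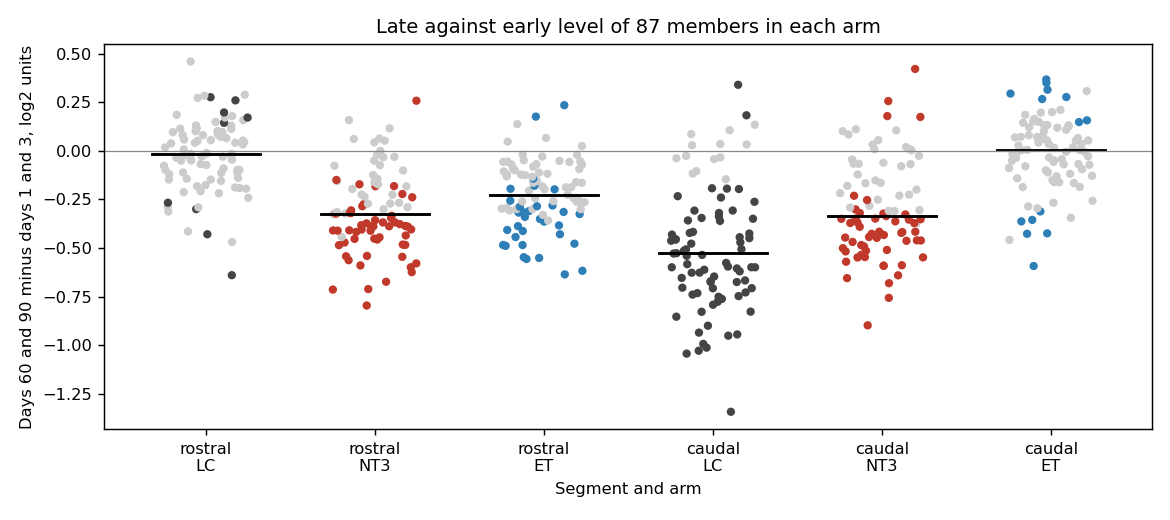
Late minus early log2 difference of 87 members (points) in each segment and arm, with the median as a black bar; dark or coloured points are called by limma and pale grey points are not. Medians run from −0.53 in caudal LC to 0.00 in caudal ET.

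Against uninjured cord, the flanking segments of LC had 18 to 31 members called, except 69 late in the caudal segment. Rostrally 24 were lower and 4 higher early, 26 and 1 at the intermediate days, and 22 and 1 late, while 31.8%, 31.3% and 28.7% of all genes were lower and 36%, 29.1% and 24.9% higher. The share of members lower was near that background. With array weights 65, 73 and 65 members were lower, but the share of all genes under these weights is not given here. Caudally 13 were lower and 5 higher early, 30 and 1 at the intermediate days, and 68 and 1 late, while 30.7%, 32.5% and 31.5% of all genes were lower and 34.3%, 29.2% and 25.2% higher. These counts move with single uninjured arrays. Without uninjured replicate 2 the late caudal count was 43, the intermediate counts were 13 in both segments, and the late rostral count was 13. Without uninjured replicate 1 the intermediate counts were 40 rostrally and 46 caudally, and without replicate 3 they were 14 and 16, with a late rostral count of 12. The difference between 3′ and 5′ probe sets of beta-actin, a sign of RNA quality, was 1.72 on average in uninjured cord and 0.99 to 1.14 in the flanking LC periods. With it as a covariate, caudal LC had 6 members lower and 41 higher early, 9 and 15 at the intermediate days, and 12 and 0 late. Rostral LC then had 17 and 12, 13 and 9, and 14 and 4. The medians of the members with this covariate were 0.39, 0.18 and −0.08 caudally, beside 0.08, 0.04 and 0.02 over all genes. Rostrally they were 0.09, 0.07 and 0.06, beside 0.08, 0.04 and 0.01. The shares of all genes called with it are not given here. The part of RNA quality was not tested further.

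Averaged over days, few members were called for either tube against LC in the flanking segments, apart from ET rostrally. NT3 against LC called 0 members by limma in both segments (1 rostrally and 4 caudally at an unadjusted p under 0.05). Rostrally 1.15% of all genes were higher and 1.61% lower, and caudally 5.91% and 3.85%. Of single days, rostral day 1 had 13 members higher and 1 lower (background 13.7% and 17%) and rostral day 90 had 0 and 6 (background 1.59% and 3.54%). The median on rostral day 90 was −0.42, with 66 members at an unadjusted p under 0.05. Rostral day 30 had 0 members called, a median of −0.34 and 34 at an unadjusted p under 0.05. Caudal day 90 went the other way, with 0 called, a median of 0.38 and 41 at an unadjusted p under 0.05. The shares of all genes at an unadjusted p are not given in this paragraph. Members moved together from array to array, as set out below, so counts at an unadjusted p are not separate results. ET against LC called 0 caudally (15 at an unadjusted p under 0.05), beside 1.72% of all genes higher and 1.79% lower. The caudal median was −0.08, against −3.5e-04 over all genes, and 81 of 87 members had a negative difference, beside 50.2% of all genes. Rostrally 83 of 87 had one, beside 62.7%. Because the members moved together from array to array, a small shared shift can set most of these signs. They are not 87 separate observations. Between rostral and caudal LC segments over all days 0 members were called by limma (0 at an unadjusted p under 0.05), beside 0.341% of all genes higher and 0.0747% lower rostrally.

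In the count of calls rostral ET was the exception. There 32 members were lower than in LC and 1 higher, beside 14.9% and 7.9% of all genes, with a median of −0.16 against −0.03 over all genes. The differences were small: the largest called was that of Sdhaf3 at −0.31 (SE 0.07, adjusted p by limma 0.001), followed by Ndufa3, an accessory subunit of complex I, at −0.30 (SE 0.10, adjusted p by limma 0.027). Ndufa4l2 was the higher one, at 0.21 (SE 0.06, adjusted p by limma 0.016). In the same comparison 13 of 14 neuron markers were lower (median −0.26), all 10 fibroblast and matrix genes were higher (median 0.66), and 9 of 19 skeletal muscle genes were higher (median 0.40). Their part was not tested. The beta-actin difference averaged 0.82 early and 0.99 late in rostral ET, against 1.08 and 1.14 in rostral LC. With it as a covariate 12 members were lower, and with scaling to the 75th percentile 19. The medians of the members were then −0.11 and −0.15, beside −0.02 and −0.01 over all genes. With single arrays left out the count of lower members ranged from 19 to 46, at 19 to 21 without rostral ET replicate 2 of day 1, 1 of day 10, 20 or 60, or 2 of day 30, and without LC replicate 2 of day 3, 1 of day 10 or 3 of day 20.

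NT3 against ET called 7 members higher and 2 lower rostrally, beside 17.4% and 12.8% of all genes, and 10 higher and 0 lower caudally, beside 4.65% and 3.73%. The 2 lower ones were Cox6b2 (log2 −0.30) and Ndufa4l2 (log2 −0.26, SE 0.06, adjusted p by limma 0.0016). The largest caudal difference was in Ndufs3, a core subunit of complex I, at 0.21 (SE 0.06, adjusted p by limma 0.013). These comparisons share the NT3, ET and LC arrays with those above. The counts ranged from 3 to 24 and from 4 to 20 with single arrays left out, so they rest on single arrays of NT3 or ET.

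Within groups the members moved together from array to array. The deviation of each array from its group mean was taken over all arrays. For 67 of 87 members it correlated over 0.5 with the mean of the other members, as a description over arrays that share their processing. The share of all genes is not given here. The deviation of the member mean correlated with that of 51 ribosomal protein genes (Pearson 0.92, Spearman 0.90, and 0.92 without the 2 most distant arrays). With the beta-actin difference it correlated at 0.31 (Spearman 0.37, and 0.37 without the 2 most distant). The range of the member mean within a group had a median of 0.26 and was widest, 0.79, in NT3 on day 30 at the lesion site. For 10 members the correlation was under 0.2. It was negative for Atp5f1a (−0.67), Sdha (−0.66), Uqcrc2 (−0.62), Atp5f1b (−0.58), Ndufaf4 (−0.52), Ndufs1 (−0.49), Sdhaf2 (−0.24) and Ndufaf1 (−0.14). These include the alpha and beta subunits of ATP synthase, the flavoprotein of complex II and the largest core subunit of complex I. Sdha and Uqcrc2 are the members that rose in late caudal LC.

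**Figure D5:**
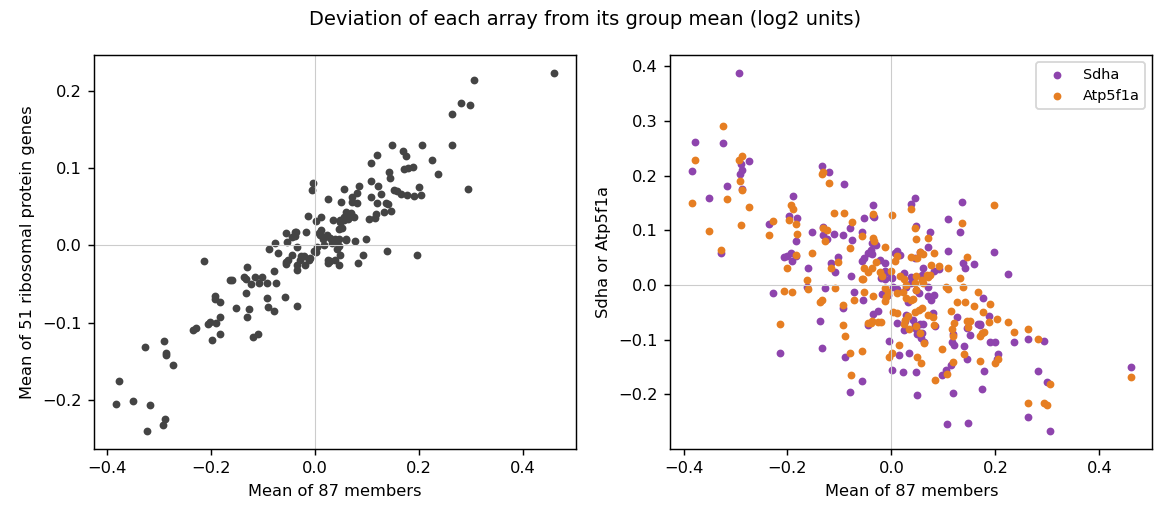
Deviation of each array from its group mean, in log2 units: left, the mean of 51 ribosomal protein genes, and right, Sdha and Atp5f1a, each against the mean of 87 members. Ribosomal protein genes rise along the member mean (Pearson 0.92), while Sdha and Atp5f1a fall along it.

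Over the 56 group means, the 5 genes with the pattern most like Cox4i1 were the complex I accessory subunits Ndufb8 (Pearson 0.964), Ndufs6 (0.963), Ndufc2 (0.961) and Ndufb4 (0.957), and Atp6v1f (0.959), a subunit of the vacuolar proton pump. The group means share arrays' processing and are no independent samples. Among the 100 genes most like it, 33 were members and 0 were ribosomal protein genes. The 12041 tested genes held 87 members, and the ribosomal mean above was taken over 51 genes. With so few ribosomal protein genes, a count of 0 in 100 says little about them. Of the 87 members, 72 had their lowest group mean at the lesion site, and 22 had their highest in uninjured cord. Of the 56 groups 13 are of the lesion site, and the shares of all genes are not given here, so these counts describe the members alone.

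Of the members below the filter, Cox4i2, the form of subunit 4 tied to low oxygen and lung, had a median of 4.92 over all arrays and a highest value of 7.15. Its highest group means were at the lesion site on day 3, with values of 5.70, 6.76 and 7.15 in NT3, 6.12, 5.85 and 5.95 in LC, and 5.96, 6.26 and 5.86 in ET. Uninjured arrays stood at 4.87, 5.32 and 5.15. On day 90 LC stood at 4.50, 4.78 and 4.94. Cox7b2, a testis form, stayed between 3.65 and 4.44 on all arrays.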

How the data were processed

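All arrays were used, grouped by segment, treatment and day from the labels. Per the submitters' processing notes, GCOS and RMA in Affymetrix Expression Console were used; versions, and which arrays were normalised together, are not given in the sources used here. The log2 values the authors deposited cover 31099 probe sets, with array medians of 7.10 to 7.25, and were not normalised again. The 20832 probe sets with a single symbol gave 14218 genes, each read from the probe set with the highest mean. Left out were 436 with more than 1 symbol, 9780 unnamed and 57 control probe sets. The filter asked for a value over the 40th percentile on at least 3 arrays, and 12041 genes passed.

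The model had 1 mean per group (limma 3.58.1, R 4.3.3). It was fitted for each segment with the uninjured cords, or over segments where they were compared, and days weighed equally. Two-sided moderated p-values of each of 22 comparisons were corrected by the Benjamini-Hochberg method across the tested genes. The fit was tested on simulated data: for NT3 against LC at the lesion site it recovered 53 of 67 genes changed by 0.3 (log2) with 9 false calls among 12041 genes. At that size it recovered 61 of 67 for lesion against flanking LC, 57 for rostral ET against LC, 29 for caudal LC late against early and 15 for rostral LC early against uninjured cord. In the simulation each gene was drawn independently, whereas the real members moved together from array to array. The false calls there do not describe calls that members share.

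Named members were, in each comparison, the 3 highest and lowest called, the largest called of each role, and a fixed list of subunits; others, such as Ndufaf4, Ndufaf7, Sdhaf2, Atp5if1 and Ndufb4, were chosen after their values were seen. Members and lists were chosen with earlier results of these data known. Alternatives were no filter, a stricter filter, another probe set rule, quantile normalization, another scaling, 1 fit of all arrays, array weights, the replicate number as a block within or across segments, a beta-actin covariate, leaving out arrays, and, added later, covariates for muscle and ribosomal protein genes. No protein sequence was used here.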

Additional observations from a re-analysis of the deposited data

Results flagged for a closer look

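At the lesion site 21 members had an NT3 minus LC difference that changed with the day by limma. Ndufa4l2 led with an adjusted p of 3.17e-06, followed by Uqcrfs1 with an adjusted p of 0.000213. Adjusted p by limma was 0.00977 for Ndufaf7, 0.00985 for Ndufb6, 0.0113 for Ndufa12, 0.0134 for Atp5mc3, 0.0158 for Sdhb, 0.0224 for Cox8a and 0.0328 for Cox4i1.

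The late minus early difference of LC differed between the rostral and caudal segments for 16 members, higher rostrally for each, beside 2.31% of all genes. The NT3 minus LC difference at the lesion site differed from that in the flanking segments for 8 members, higher for 5 and lower for 3, beside 14.6% and 16.6% of all genes. Lesion minus flanking, it was −1.22 for Ndufa4l2, 2.01 for Cox6a2 and 1.76 for Cox8b on the log2 scale.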

How the results depend on the processing

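Of 229 recomputed counts over 22 comparisons, 190 stayed within 1.5 times. The lower counts at the lesion site held under each alternative other than leaving out single arrays: 80 to 83 against the flanking segments, and 48 to 77, 59 to 81 and 58 to 82 against uninjured cord on day 3, the intermediate days and late. Of 249 called results for named members, 145 kept their call in each setting and 12 reversed. The cause of the changes was not tested.

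Counts below are members called in the direction of the reported result, given without the share of all genes in the same fit. The filter at the 60th percentile gave 1 in caudal ET vs LC. Quantile normalization gave 9 in rostral LC late vs early, and 4 and 5 in rostral and caudal NT3 vs ET. Scaling to the 75th percentile gave 19 in rostral ET vs LC, 2 in caudal ET vs LC, and 1 higher against 2 lower in rostral NT3 vs ET. One fit of all arrays gave 2 in caudal ET vs LC and 53 by day at the lesion site. Array weights gave 65, 73 and 65 in rostral LC against uninjured cord (early, intermediate, late) and 30 and 64 in caudal LC (early, intermediate). They gave 15 in rostral LC late vs early, 2 and 1 in rostral and caudal NT3 vs LC, 25 in lesion NT3 vs LC, 2 in caudal ET vs LC, 68 and 24 in rostral and caudal NT3 vs ET, and 79 by day.

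The beta-actin covariate gave 13 and 14 in rostral LC intermediate and late. In caudal LC it gave 6 lower against 41 higher early, 9 against 15 at the intermediate days, and 12 late. It gave 8 in rostral LC late vs early, 12 in rostral ET vs LC and 1 in caudal ET vs LC. Values that changed sign with it were Atp5mk in rostral (0.0022) and caudal (0.044) LC intermediate, Cox4i1 in caudal LC intermediate (0.0080) and Cox8a in caudal LC late (0.025). Without lesion LC replicate 5 of day 20, lesion NT3 replicate 1 of day 3 and uninjured replicate 2, rostral LC intermediate and late gave 13 each, caudal LC intermediate 13 and late 43, rostral LC late vs early 8 and caudal ET vs LC 1. The muscle covariate gave 0 in lesion NT3 vs LC and 43 by day, with Cox6a2 at −0.080 and Cox8b at −0.59. The ribosomal covariate gave 5 in caudal LC late vs early. There Uqcrc2 turned to −0.091, Sdhb to 0.055, Cox4i1 to 0.093, Cox6a1 to 0.011, and Cox7a1 and Cox8a to 0.17.

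With single arrays left out, the counts were 17 to 35, 13 to 40 and 12 to 33 in rostral LC, 7 to 13, 13 to 46 and 43 to 71 in caudal LC, and 47 to 71, 59 to 77 and 56 to 73 at the lesion site, against uninjured cord. Late vs early they were 3 to 7 rostrally, 64 to 73 caudally and 10 to 19 at the lesion site. For NT3 vs LC they were 0 to 0 rostrally, 0 to 1 caudally, 4 to 13 at the lesion site and 11 to 61 by day. For ET vs LC they were 19 to 46 and 0 to 3, for NT3 vs ET 3 to 24 and 4 to 20, and for lesion vs flanking segments 78 to 81. Rostral vs caudal LC gave 0 to 0.

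With the replicate number as a replicate block, 80 members were lower in lesion vs flanking LC, 7 higher and 3 lower in lesion NT3 vs LC, and 15 changed by day. Cox6b2 was at −0.29 in lesion NT3 vs LC (adjusted p by limma 0.0774). Whether the numbers pair the samples is not in the labels, and these values cannot decide it. Deviations of same-numbered arrays of an arm and day correlated at −0.46 to 0.52 across segments (median 0.06), with 64 of 138 pairs over 0.1. Across arms of a segment and day they correlated at −0.45 to 0.58 (median 0.02), with 54 of 147 over 0.1.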
